A study of Mus musculus with 27 samples.

Results

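Line 31 is 1 of the immortalized mouse neural stem cell lines of this series, and its tumors were chosen by their titles: 3 of the 27 arrays. They were compared with the 9 tumors of lines 1, 59 and 123, again 3 per line. By their labels, the tumors of lines 31 and 59 were p53 mutant and those of lines 1 and 123 were wild type (WT), with p53 the tumor suppressor encoded by Trp53. All 12 tumors were labelled subcutaneous tissue, and every sample had the host strain background CB17/ICR-Prkdcscid/IcrCrl, the severe combined immunodeficiency (SCID) mouse, which lacks functional T and B lymphocytes but keeps macrophages and other innate immune cells. Also used were 10 lines grown in culture (lines 3, 28, 31, 59, 95 and 116, p53 mutant, and lines 119, 120, 123 and 331, WT), 1 array each, and 3 arrays of subcutaneous tissue (WT). The tumors of line 1 had no culture array here. Each tumor group stands for 1 line, so what belongs to a line and what to its p53 genotype cannot be told apart. Age, sex and pooling were not stated. The titles call the 3 tumors of a line biological replicates but do not say whether they came from separate animals, so each p-value reflects only how much these particular samples vary, which may in part be technical.

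Neural stem cells self-renew and give rise to neurons, astrocytes and oligodendrocytes, and they are marked by nestin and SOX2. A tumor under the skin is a mixture of the implanted cells with host macrophages, vessels and connective tissue. In such bulk samples, fewer cells of a type and less RNA per cell cannot be told apart. Several genes that set line 31 apart are imprinted, which means that 1 parental copy is normally silenced by DNA methylation. Peg10 and Sgce are neighbours transcribed from the paternal copy from a shared start region, and Mest is transcribed from the paternal copy elsewhere on the same chromosome. Others belong to a long noncoding transcript that holds microRNAs, to interferon-responsive genes, and to secreted guidance and matrix proteins.

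The sequences shown here belong to some of the genes described. The promoter source used here held no entry for Peg10, Sgce, Ccdc80 and Chrdl1, so none is shown for them. The transcript Mir99ahg on chromosome 16, higher in line 31 tumors, hosts 3 microRNAs, whose mature forms are given as RefSeq lists them (GRCm38.p6, 5′ to 3′), each 22 bases long, with the seed, bases 2 to 8, in capitals. They lie on the + strand at chr16:77598940-77598961, chr16:77599672-77599693 and chr16:77646279-77646300, and the 3 seeds differ.
mmu-miR-99a-5p: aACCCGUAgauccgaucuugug
mmu-let-7c-5p: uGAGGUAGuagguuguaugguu
mmu-miR-125b-5p: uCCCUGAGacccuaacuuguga

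The next sequence is a promoter of Mest, shown because imprinting acts through methylated CG pairs, which are in capitals. It covers 250 bases before to 50 bases after 1 of the 3 listed starts, the one with the most CG pairs (chr6:30737800-30738099, + strand). It holds 17 CG pairs, against a median of 7 over 32851 promoters of the same length, of which 31.4% hold at least 17. Methylation was not measured in these samples.
Mest: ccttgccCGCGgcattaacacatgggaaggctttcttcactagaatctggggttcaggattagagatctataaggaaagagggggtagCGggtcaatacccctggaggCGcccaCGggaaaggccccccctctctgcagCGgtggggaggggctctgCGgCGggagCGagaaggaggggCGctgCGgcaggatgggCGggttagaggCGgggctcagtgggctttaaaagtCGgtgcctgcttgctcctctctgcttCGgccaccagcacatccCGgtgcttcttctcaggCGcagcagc

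The promoters of Ubd (chr17:37193642-37193941, + strand) and Cxcl10 (chr5:92348840-92349139, - strand) are shown because both genes answer to inflammatory cytokines and were higher in line 31 tumors. Capitals mark matches, on either strand, to a motif of NF-kB (GGG, any 3 bases, TTCC) and to a core of the interferon-stimulated response element (GAAA, any 2 bases, GAAA). No 2 of the matches shown share a base.
Ubd: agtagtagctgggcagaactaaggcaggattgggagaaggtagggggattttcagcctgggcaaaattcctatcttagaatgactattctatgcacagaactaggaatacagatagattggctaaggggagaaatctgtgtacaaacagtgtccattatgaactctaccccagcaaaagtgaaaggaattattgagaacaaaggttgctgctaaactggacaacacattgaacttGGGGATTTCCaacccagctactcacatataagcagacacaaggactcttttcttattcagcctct
Cxcl10: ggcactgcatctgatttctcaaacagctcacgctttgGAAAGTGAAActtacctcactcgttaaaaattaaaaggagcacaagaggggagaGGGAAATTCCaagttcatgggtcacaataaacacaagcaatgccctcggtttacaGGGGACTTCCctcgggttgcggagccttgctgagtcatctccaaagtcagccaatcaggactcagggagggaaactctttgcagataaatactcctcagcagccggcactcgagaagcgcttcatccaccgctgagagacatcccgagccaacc

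In the Ubd window the NF-kB letters occurred as GGGGATTTCC at -15 to -6 from the start, and the interferon letters did not occur. In Cxcl10 the interferon letters occurred as GAAAGTGAAA at -213 to -204, and the NF-kB letters as GGGAAATTCC at -159 to -150 and GGGGACTTCC at -104 to -95. Of the 32851 promoters, 5.56% held the first motif and 3.44% the second. A match of letters is a description and no shown binding site.

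Values are log2 expression levels made by the authors with RMA, so a difference of 1 is 2-fold, and levels are compared between samples of 1 gene, not between genes. The medians of the 12 tumor arrays ranged from 5.47 to 5.57. The 25th percentile of gene means was 4.76 in line 31 tumors and 4.74 over the other lines. Where 1 side of a comparison lies under it, near the low end of the scale, the size of a fold is less certain. Such genes include Peg10, Klf12 and Cdh10 in line 31, and Ubd, Tslp and Mir99a in the other lines. Line 31 held the least alike tumors of 1 line: their pairwise correlations ran from 0.942 to 0.974, against 0.963 to 0.985 within lines 1, 59 and 123, and 0.936 to 0.970 between line 31 and other tumors. In line 31, 200 genes had a range over 2, against 78, 68 and 53 in lines 1, 59 and 123. Some of these genes are described further on, since replicate 3 stood apart from replicates 1 and 2 in several chromosome stretches. The cell and tissue arrays looked normalized by the authors as separate sets, so cultures are compared with cultures and tumors with tumors.

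Line 31 tumors differed from the mean of the other 3 lines in 277 of 19937 genes (1.39%), called at an adjusted p under 0.05 in limma. Of these, 125 rose (0.627% of all genes) and 152 fell (0.762%) in line 31. The median difference over all genes was 0.01. At an unadjusted p under 0.05, used further on beside the gene lists, 7.06% of all genes were higher and 7.12% lower. The 3 line 31 tumors lay above all 9 others in 241 genes (1.21%) and below them in 224 (1.12%), and 85 (0.426%) and 91 (0.456%) of these were also called. Single arrays moved the total: 47 genes were called without line 31 replicate 1 and 562 without line 31 replicate 3. The counts were 448 without line 1 replicate 1, 147 without line 1 replicate 3 and 167 without line 123 replicate 3. Without line 31 replicate 1, 21 of the 58 named genes that were called kept the call. A call lost there need not mean a smaller difference. With line treated as a random block, 5 genes were called: Peg10, Sgce, Meis1, Clec5a and Aff3. The consensus correlation within lines was low in that fit, at 0.104, so single tumors still counted nearly as separate units. It was thus no test of 1 line against 3 lines.

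The leading decreases in line 31 tumors were imprinted genes of chromosome 6. Peg10, a retrotransposon-derived gene needed for placental growth, read 4.69, 4.29 and 4.47 in the 3 line 31 tumors and 7.06, 7.76 and 9.27 at the lowest, median and highest of the other 9. Sgce, which encodes epsilon-sarcoglycan of the muscle and brain membrane complex, read 5.88, 5.89 and 6.23 against 8.38, 8.66 and 9.02. The groups did not overlap in either gene. The means in line 31 were 4.49 ± 0.20 (SD, n = 3) for Peg10 and 6.0 ± 0.20 for Sgce. Peg10 fell by 3.48 ± 0.26 (SE), or 11.1-fold (adjusted p = 9.9e-05), and Sgce by 2.67 ± 0.14, or 6.38-fold (adjusted p = 2.33e-06). The Peg10 mean in line 31 was under the 25th percentile of 4.76, so the size of its fold is uncertain. Against lines 1, 59 and 123 taken singly, the differences were -3.21, -4.31 and -2.91 in Peg10 and -2.51, -2.83 and -2.68 in Sgce, called each time. Both calls were kept when any of the 12 tumors was left out.

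The same genes were low in line 31 before implantation. In culture, Peg10 was at 6.01 in line 31, the lowest of 10 lines, and at 6.18 in line 28, while the other 8 lines lay between 9.62 and 13.00. Sgce was at 5.65 in line 31 and 5.81 in line 28, against 9.76 to 10.44 in the other 8. With 1 array per line, these culture values have no test. Lines 31 and 28 thus stood apart from the other cultured lines in both genes, and line 28 had no tumors here.

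The low values did not extend evenly along the chromosome, as the plot of Peg10 and its neighbours shows. Over the 25 measured genes from Hepacam2 to Sdhaf3 the median difference was -0.12, with 5 genes called lower. Casd1, the gene next to Sgce, differed by -0.14 (adjusted p = 0.791). Ppp1r9a, which encodes the actin-binding protein neurabin, fell by 0.97 (adjusted p = 0.0137), with differences of -0.09, -2.01 and -0.80 from lines 1, 59 and 123. Pdk4, a kinase that turns off pyruvate dehydrogenase, read 5.81, 5.48 and 4.62 against 5.30, 7.48 and 8.29 at the lowest, median and highest of the others, so the groups overlapped. It fell by 1.71 ± 0.33 (adjusted p = 0.028), and its difference from line 1 was -0.58. Tfpi2, an inhibitor of serine proteases, fell by 1.57, with a difference from line 1 of -4.51 (adjusted p = 3.7e-06), and its call was lost without line 31 replicate 1 (adjusted p = 0.0568). Without line 1 tumors Tfpi2 differed by -0.10 (adjusted p = 0.851).

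**Figure D1:**
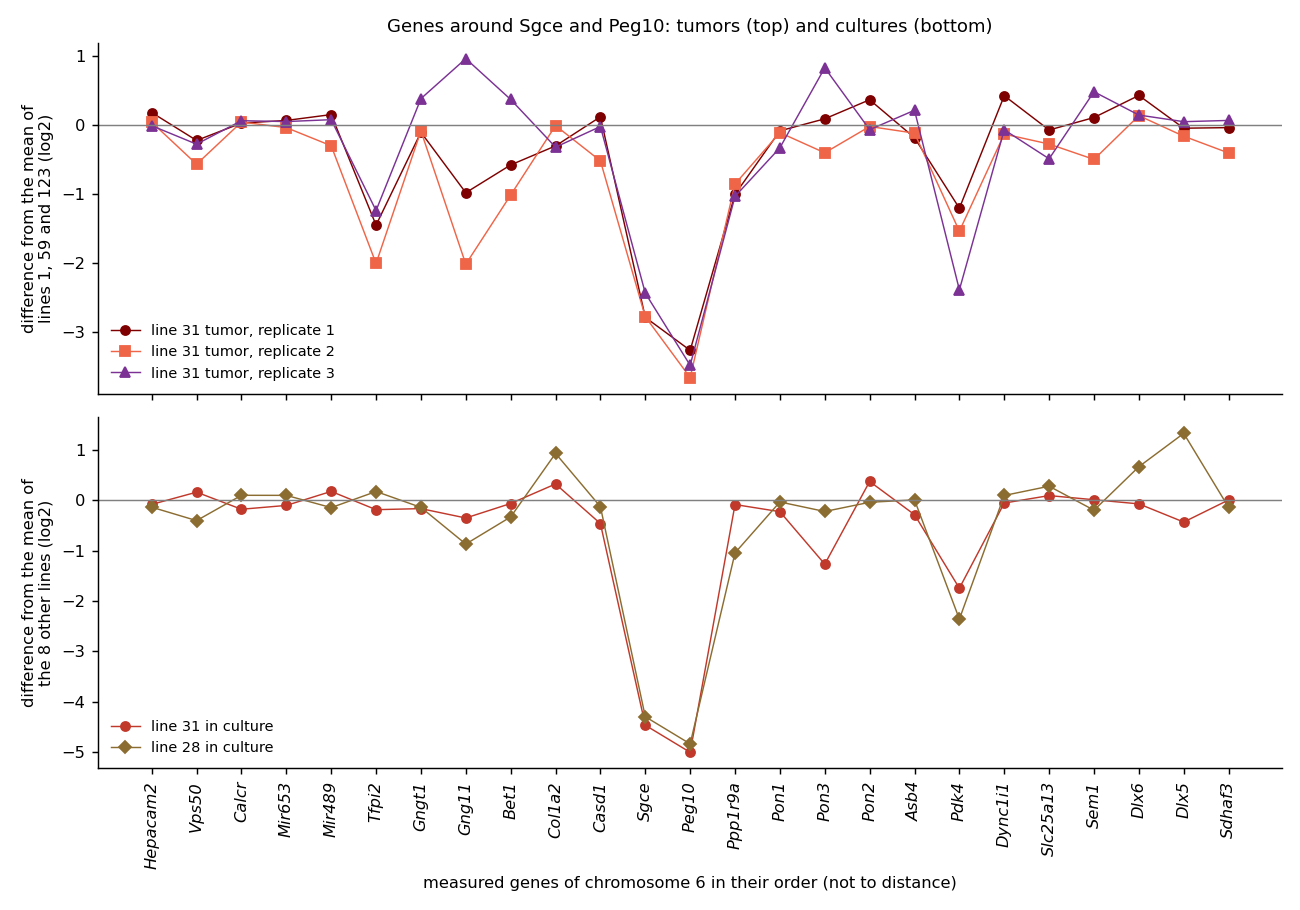
Log2 differences of the 25 measured genes around Peg10 in chromosome order: above, each line 31 tumor minus the mean of lines 1, 59 and 123; below, the cultures of lines 31 and 28 minus the mean of the 8 other cultured lines. Sgce and Peg10 lie far below 0 in tumors and in both cultures, while the median of the 25 genes in tumors is -0.12.

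Mest, which encodes a hydrolase-like protein of embryonic mesoderm, was at 6.83, 6.44 and 7.39 in line 31 tumors and at 7.74, 8.50 and 10.06 at the lowest, median and highest of the others, without overlap. It fell by 1.83 ± 0.32, or 3.55-fold (adjusted p = 0.0174), though the call was lost without line 31 replicate 1 or replicate 2 (highest adjusted p = 0.122). In culture line 31 was the lowest of 10 lines, at 5.90, with the others between 6.82 and 11.38. Across 17 measured genes from Zc3hc1 to Mkln1, the stretch around the promoter printed above, the median difference was 0.01. Mest was the 1 gene called there, while its neighbours Mir335 and Copg2 differed by 0.04 and 0.09.

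Of 15 measured imprinted growth genes, 3 fell (Peg10, Sgce and Mest), none rose, and the median difference was -0.51, against 0.01 over all genes. At an unadjusted p under 0.05, 7 were lower and 0 higher, against 7.12% of all genes lower. Igf2r, which clears the growth factor IGF2, differed by -0.95 (adjusted p = 0.0595), and the noncoding RNA Meg3 by -0.67 (adjusted p = 0.134), the latter with -1.73 from line 1 and 0.01 from line 59. The paternally expressed growth factor gene Igf2 differed by -0.25, Dlk1 by 0.00 and Peg3 by 0.05. The maternally expressed growth brakes Cdkn1c and Phlda2 differed by 0.16 and 0.18, and Grb10 by 0.00. Impact, an imprinted gene outside that list and named after its values were seen, rose by 0.97 (adjusted p = 0.0119). Within the list the called genes thus all fell, and Impact, picked from outside it, gives no count for imprinted genes as a class.

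**Figure D2:**
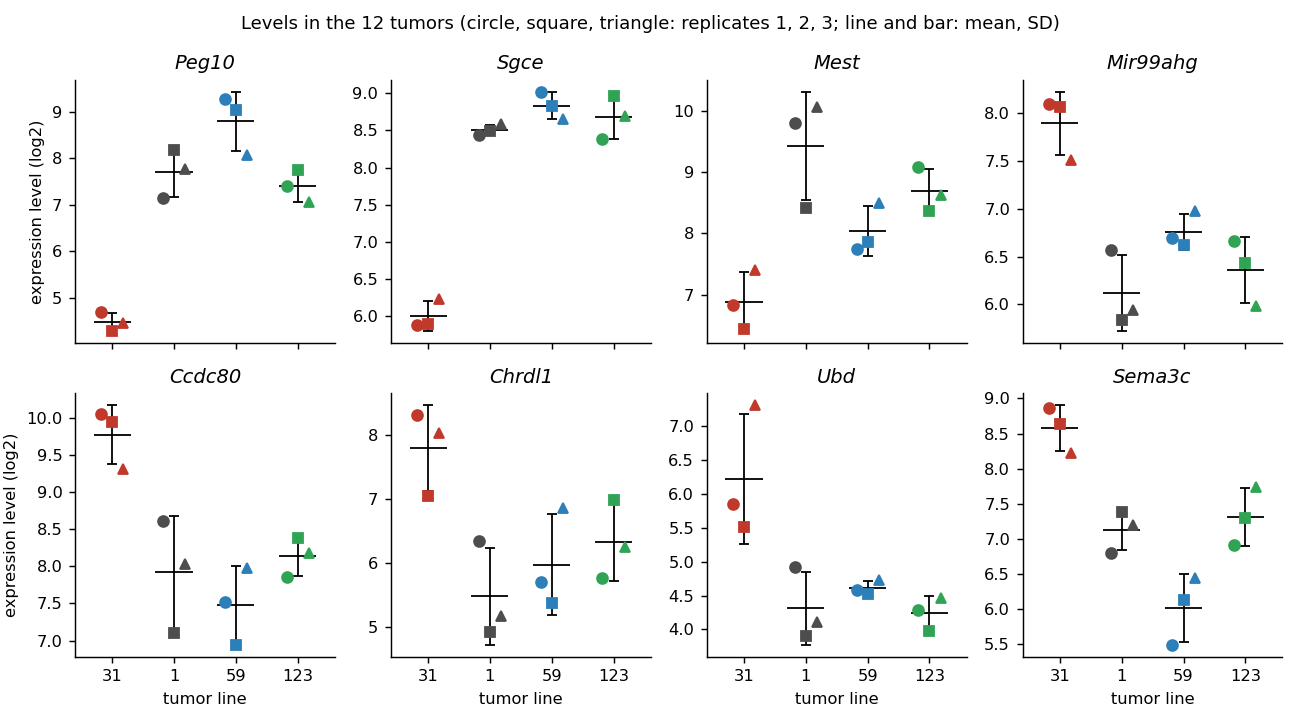
Log2 levels of 8 genes in the 12 tumors, with points for each tumor marked by replicate and bars for the mean ± SD of the 3 tumors of a line. Line 31 lies below the other lines in Peg10, Sgce and Mest and above them in Mir99ahg, Ccdc80, Chrdl1, Ubd and Sema3c, with line 31 replicate 3 the highest in Ubd, at 7.30.

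Mir99ahg, the host transcript of the 3 microRNAs printed above, read 8.10, 8.07 and 7.51 in line 31 tumors, against 5.84, 6.57 and 6.97 at the lowest, median and highest of the others. Every line 31 tumor lay above every other tumor. It rose by 1.48 ± 0.19, or 2.79-fold (adjusted p = 0.0042), and was called against each line, by 1.78, 1.13 and 1.53 for lines 1, 59 and 123. The feature named for Mir99a, the miR-99a gene, read 6.21, 6.35 and 5.75 against 3.81, 4.91 and 5.26, again without overlap, and rose by 1.38 ± 0.18 (adjusted p = 0.0042). Features named for the other microRNAs of the transcript were not called: Mirlet7c-1 differed by 0.58 (adjusted p = 0.387) and Mir125b-2 by 0.18 (adjusted p = 0.649). The sources used here do not say whether these features read the hairpin or the host transcript, and mature microRNA was not measured separately. In culture line 31 was the highest of 10 lines in Mir99ahg, at 9.90 (others 7.23 to 9.55), and in Mir99a, at 7.53 (others 5.66 to 7.17).

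Ccdc80, a secreted matrix protein known in fat and connective tissue, read 10.05, 9.93 and 9.31 in line 31 tumors and 6.94, 7.98 and 8.61 at the lowest, median and highest of the others. The groups did not overlap. It rose by 1.92 ± 0.29, or 3.79-fold (adjusted p = 0.00909), and the call was lost without line 31 replicate 1 (adjusted p = 0.0904). Against lines 1, 59 and 123 the differences were 1.85, 2.29 and 1.63, of which the last was not called (adjusted p = 0.0618). In culture, line 31 ranked 8 of 10 in Ccdc80, at 10.15, with the others between 8.12 and 11.30. Line 31 was thus highest in Ccdc80 among tumors but not among cultures.

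Ccdc80 was the 1 called gene among 16 measured proteoglycans and Ccdc80 relatives, whose median difference was 0.04. Without adjustment, 5 of the 16 were higher and 0 lower at a p under 0.05. Among 19 fibroblast and collagen matrix genes none rose and 1 fell (Fbln2), with a median of -0.14, and 2 were higher and 4 lower without adjustment. Fbln2, which encodes fibulin-2 of elastic fibres and basement membranes, fell by 1.64 (adjusted p = 0.0298), a call lost without line 1 replicate 3, line 31 replicate 1 or line 59 replicate 2 (highest adjusted p = 0.247). Of 15 adipocyte genes none was called, and their median difference was -0.13. Without adjustment, 1 adipocyte gene was higher and 1 lower at a p under 0.05.

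Chrdl1, a secreted antagonist of bone morphogenetic proteins (BMPs), read 8.30, 7.04 and 8.03 in line 31 tumors against 4.92, 5.75 and 6.98 in the lowest, median and highest other tumor, so replicate 2 lay just above the highest of the others. It rose by 1.87 ± 0.39, or 3.65-fold (adjusted p = 0.0393). That call was the least stable of the markers: it was lost when line 1 replicate 2 or 3, line 31 replicate 1 or 3, line 59 replicate 1 or 2, or line 123 replicate 1 or 3 was left out (highest adjusted p = 0.276). Against lines 1, 59 and 123 Chrdl1 differed by 2.32, 1.82 and 1.46, and the first was called. In culture line 31 was at 8.85, ranked 6 of 10.

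Of 32 measured BMP ligands, receptors and antagonists, 1 rose (Chrdl1) and 1 fell (Bmpr1a), and the median difference was 0.04. Without adjustment, 3 were higher and 6 lower at a p under 0.05. Bmpr1a, a type I BMP receptor, was at 8.66, 8.13 and 8.25 in line 31 tumors and fell by 0.74 ± 0.14 (adjusted p = 0.0293), lost without line 1 replicate 2 or 3, line 31 replicate 2 or 3, or line 123 replicate 1 (highest adjusted p = 0.076). It differed by -1.36 from line 1, and without line 1 tumors by -0.43 (adjusted p = 0.273). The culture of line 31 was the lowest of 10 lines in Bmpr1a, at 10.17. In the Notch pathway 1 of 19 genes fell: Hey1, a transcriptional repressor induced by Notch and BMP signals, read 5.50, 5.56 and 5.51 against 5.91, 6.59 and 8.03, and fell by 1.22 (adjusted p = 0.0118). The Hey1 call was lost without line 31 replicate 1 (adjusted p = 0.0904). Notch genes higher and lower at an unadjusted p under 0.05 numbered 1 and 2. No gene was called among 31 Wnt and 17 TGF-beta genes. At an unadjusted p under 0.05, 1 Wnt gene was higher and 6 lower, and 3 TGF-beta genes were higher and 3 lower, beside 7.06% and 7.12% of all genes.

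Growth factors showed single changes. Fgf2, a mitogen used to grow neural stem cells, read 7.66, 7.06 and 6.64 in line 31 tumors and 5.0, 5.83 and 6.87 in the lowest, median and highest other tumor, so replicate 3 overlapped with the others. It rose by 1.20 ± 0.24 (adjusted p = 0.0338), and the call was lost without line 1 replicate 3, line 31 replicate 1 or 2, or any 1 tumor of line 123 (highest adjusted p = 0.256). The culture of line 31 was the highest of 10 lines in Fgf2, at 8.73. Fgf2 was the 1 gene called of 29 growth factors and receptors. At an unadjusted p under 0.05, 3 of the 29 were higher and 3 lower, beside 7.06% and 7.12% of all genes. Igfbp5, which binds insulin-like growth factors, read 5.52, 6.02 and 5.59 against 6.44, 7.56 and 9.31 and fell by 1.86 (adjusted p = 0.0067), lost without line 31 replicate 1 (adjusted p = 0.0658). Igfbp7 rose by 0.98 (adjusted p = 0.0463), a call lost without any 1 of the 12 tumors other than line 1 replicate 1, line 31 replicate 3 or line 59 replicate 3 (highest adjusted p = 0.269). Of the 12 IGF genes measured, these were the 2 called, and 1 was higher and 4 lower at an unadjusted p under 0.05.

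Sema3c, a secreted class 3 semaphorin that steers axons and migrating cells, read 8.86, 8.64 and 8.22 in line 31 tumors and 5.48, 6.91 and 7.73 at the lowest, median and highest of the others. No tumor of another line reached the lowest line 31 tumor. It rose by 1.75 ± 0.22, or 3.37-fold (adjusted p = 0.0042), and the call was kept with any 1 tumor left out. The differences from lines 1, 59 and 123 were 1.45, 2.56 and 1.26, and the last was not called (adjusted p = 0.061). Cultures ran the same way for the lines with tumors: line 31 was at 10.14, line 59 at 6.86 and line 123 at 8.60.

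The receptors for such cues that were called fell. Of 31 measured semaphorins, plexins and neuropilins, Sema3c rose, and the receptors Plxna2 and Plxna3 fell by 0.69 (adjusted p = 0.0178) and 0.51 (adjusted p = 0.0464). The Plxna2 call was lost without line 31 replicate 1 (adjusted p = 0.145), and the Plxna3 call was lost without any 1 tumor other than line 1 replicate 1 or line 123 replicate 1 (highest adjusted p = 0.299). The median of the list was -0.21. At an unadjusted p under 0.05, 2 of its genes were higher and 9 lower, against 7.06% and 7.12% of all genes. Among 25 ephrin, netrin and slit genes 1 rose and 2 fell, with a median of 0.05. Without adjustment, 3 were higher and 4 lower at a p under 0.05. Slit2, a repellent ligand, read 9.43, 9.11 and 9.19 against 7.20, 8.14 and 8.70, without overlap, and rose by 1.23 (adjusted p = 0.00405), kept with any 1 tumor left out but not without line 1 tumors (0.88, adjusted p = 0.0518). The receptor tyrosine kinase gene Epha7 read 4.97, 5.49 and 5.87 against 6.59, 6.82 and 7.57, and fell by 1.50 (adjusted p = 0.0103), lost without line 31 replicate 1 (adjusted p = 0.0921). Epha3 fell by 1.51 (adjusted p = 0.0485), with -2.95 from line 123, and that call was lost without line 1 replicate 1 or 3, any 1 tumor of line 31, line 59 replicate 1 or 3, or line 123 replicate 3 (highest adjusted p = 0.246). Without line 123 tumors Epha3 differed by -0.79 (adjusted p = 0.255).

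Among adhesion genes, Lamb1, a laminin chain of basement membranes, was the 1 of 25 integrins and laminins called, and fell by 0.92 (adjusted p = 0.013, and 0.101 without line 31 replicate 1). In that list 2 were higher and 4 lower at an unadjusted p under 0.05. Among 18 cadherins and protocadherins 2 fell, Cdh10 and Pcdh7, and none rose, with a median of -0.17. Without adjustment, 0 were higher and 6 lower at a p under 0.05, against 7.12% of all genes lower. Cdh10 read 4.38, 4.40 and 4.75 in line 31 tumors against 5.06, 5.59 and 8.29, without overlap, and fell by 1.64 (adjusted p = 0.0042). It differed by -0.98, -0.75 and -3.19 from lines 1, 59 and 123, and without line 123 tumors by -0.87 (adjusted p = 0.0569). Pcdh7 is described further on. Cdh19, counted among the Schwann cell genes, differed by -2.81 from line 59 but by -0.08 and -0.17 from lines 1 and 123, so the difference was from line 59 alone. Its call was lost without any 1 tumor other than line 1 replicate 1 or 2 or line 59 replicate 1 (highest adjusted p = 0.122). No gene was called among 21 matrix proteases and inhibitors (1 higher and 4 lower at an unadjusted p under 0.05).

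Ubd, a ubiquitin-like protein induced by interferon gamma and tumor necrosis factor, read 5.85, 5.50 and 7.30 in line 31 tumors and 3.90, 4.47 and 4.92 at the lowest, median and highest of the others. The groups did not overlap, and replicate 3 was well above the other line 31 tumors. It rose by 1.83 ± 0.31, or 3.56-fold (adjusted p = 0.0159), a call lost without line 31 replicate 1 (adjusted p = 0.0704). Without that tumor the difference in Ubd was 2.02, so the call was not lost through a smaller difference. In culture line 31 was at 4.97, ranked 7 of 10. Cxcl10, an interferon-induced chemokine that attracts lymphocytes, read 8.91, 9.95 and 10.28 against 7.48, 8.07 and 9.53. Replicate 1 overlapped with the others. Cxcl10 rose by 1.51 (adjusted p = 0.0272), lost without line 1 replicate 3, line 31 replicate 2, line 31 replicate 3 or line 123 replicate 2 (highest adjusted p = 0.0691).

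Cxcl10 was the 1 called gene among 17 interferon-stimulated genes, of which 15 had a mean above the other lines and the median difference was 0.47. Without adjustment, 5 were higher and 0 lower at a p under 0.05, against 7.06% of all genes higher. Much of this difference was in 1 tumor: the mean level over the list was 6.87, 7.12 and 7.80 in line 31 replicates 1 to 3, and between 6.34 and 7.30 in the other 9. The antiviral genes Ifit1 (7.83, 7.55 and 9.74), Ifit3 (7.79, 7.66 and 9.51) and Rsad2 (6.07, 6.03 and 7.86) showed replicate 3 above replicates 1 and 2. Ubd was likewise the 1 called of 16 genes of antigen presentation and the immunoproteasome (median 0.14). In that list 3 were higher and 1 lower at an unadjusted p under 0.05. The class II genes H2-Aa and H2-Ab1 differed by 0.82 and 0.87 and were not called. No gene was called among 15 targets of NF-kB, with 3 higher and 1 lower at an unadjusted p under 0.05 and a median of 0.19.

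Of 24 chemokine and inflammatory cytokine genes 2 rose, none fell, and the median was 0.27. Without adjustment, 7 were higher and 0 lower at a p under 0.05, against 7.06% of all genes higher. Tslp, an epithelial cytokine, read 5.20, 4.94 and 4.99 against 3.45, 3.92 and 4.42, without overlap, and rose by 1.13 (adjusted p = 0.00997, and 0.0904 without line 31 replicate 1). Cxcl16, a chemokine and scavenger receptor, rose by 0.89 (adjusted p = 0.0392), with 1.72 from line 1, and that call was lost without any 1 tumor other than line 1 replicate 1, line 31 replicate 3 or line 59 replicate 1 (highest adjusted p = 0.151). Without line 1 tumors Cxcl16 differed by 0.48 (adjusted p = 0.356). Ccl12, a monocyte-attracting chemokine outside that list, read 11.05, 10.74 and 11.52 against 8.16, 9.63 and 10.40. It rose by 1.59 ± 0.30 (adjusted p = 0.0248), lost without line 31 replicate 1 or replicate 3 (highest adjusted p = 0.145). The complement gene C2 fell by 0.83 (adjusted p = 0.018), the 1 called of 13 complement genes, lost without line 31 replicate 1 or replicate 2 (highest adjusted p = 0.148). Complement genes higher and lower at an unadjusted p under 0.05 numbered 1 and 1. C2 differed by -0.32, -0.25 and -1.92 from lines 1, 59 and 123, and without line 123 tumors by -0.28 (adjusted p = 0.471).

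Of 20 measured macrophage genes, 3 rose in line 31 tumors (Aif1, Msr1 and Fcer1g), none fell, 19 had a mean above the other lines, and the median difference was 0.67. At an unadjusted p under 0.05, 15 were higher and 0 lower, against 7.06% of all genes higher. Aif1, the microglia and macrophage protein IBA1, read 7.63, 7.68 and 7.83 in line 31 tumors against 5.68, 6.59 and 7.40, without overlap, and rose by 1.22 (adjusted p = 0.0143), lost without line 31 replicate 1 (adjusted p = 0.0912). Msr1, a scavenger receptor, read 9.71, 9.15 and 9.52 against 7.56, 8.41 and 8.83 and rose by 1.21 (adjusted p = 0.0364), a call lost without line 1 replicate 2 or 3, line 31 replicate 1 or 3, or line 59 replicate 3 (highest adjusted p = 0.255). Fcer1g, an adaptor of Fc receptors, read 8.81, 9.24 and 8.92 against 7.78, 8.07 and 8.89 and rose by 0.87 (adjusted p = 0.0272), lost without line 31 replicate 1, line 31 replicate 2 or line 123 replicate 1 (highest adjusted p = 0.0998).

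The 17 macrophage genes not called included Cx3cr1 (1.05), C1qc (0.90), Tyrobp (0.78), Ptprc (0.76), Adgre1 (0.66), Csf1r (0.37), Cd68 (0.18) and Cd163 (-0.18). The comparisons with single lines differed. Against line 1, where 1.51% of all genes were called higher, 6 of 20 rose and the list median was 0.92. Against line 59 (0.391% of genes called higher) 0 rose, with 5 higher and 0 lower at an unadjusted p under 0.05 (6.4% of all genes were higher) and a median of 0.39. Against line 123 (0.206% called higher) 1 rose and the median was 0.69. Whether lines differ in these differences was not tested. The mean over the list was 8.89, 9.07 and 8.60 in line 31 tumors and 8.92 in line 59 replicate 1, so the groups overlapped, with the other 8 tumors between 7.68 and 8.39.

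Further genes of myeloid cells were called higher outside that list and are named after their values were seen, while Gpnmb, also made by macrophages, fell by 1.77 and is described further on. Clec5a, a myeloid C-type lectin receptor, read 7.78, 7.64 and 7.51 against 6.41, 6.76 and 6.87, rose by 0.95 ± 0.11 (adjusted p = 0.00282), and was called against each line. Aoah, an enzyme that inactivates bacterial lipopolysaccharide, rose by 0.95 (adjusted p = 0.0067). Cysltr1, a receptor for the leukotrienes made by leukocytes, read 8.90, 8.11 and 8.52 against 6.44, 7.08 and 7.98 and rose by 1.52 ± 0.21 (adjusted p = 0.00587), lost without line 31 replicate 1 (adjusted p = 0.053). Cd72, a receptor of B cells and some myeloid cells, read 8.27, 9.05 and 8.13 against 6.41, 7.05 and 8.03 and rose by 1.39 (adjusted p = 0.00765), and without line 1 tumors differed by 1.11 (adjusted p = 0.0612). T and B cell markers could hardly rise here, as the SCID host lacks functional T and B lymphocytes. Of 17 T, B and NK genes none was called (1 higher and 1 lower at an unadjusted p under 0.05), and the median was 0.02. Cd3e, Cd3g and Cd79a differed by -0.13, 0.18 and -0.05. None of 15 neutrophil and mast cell genes was called either (0 at an unadjusted p under 0.05), with a median of 0.03.

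**Figure D3:**
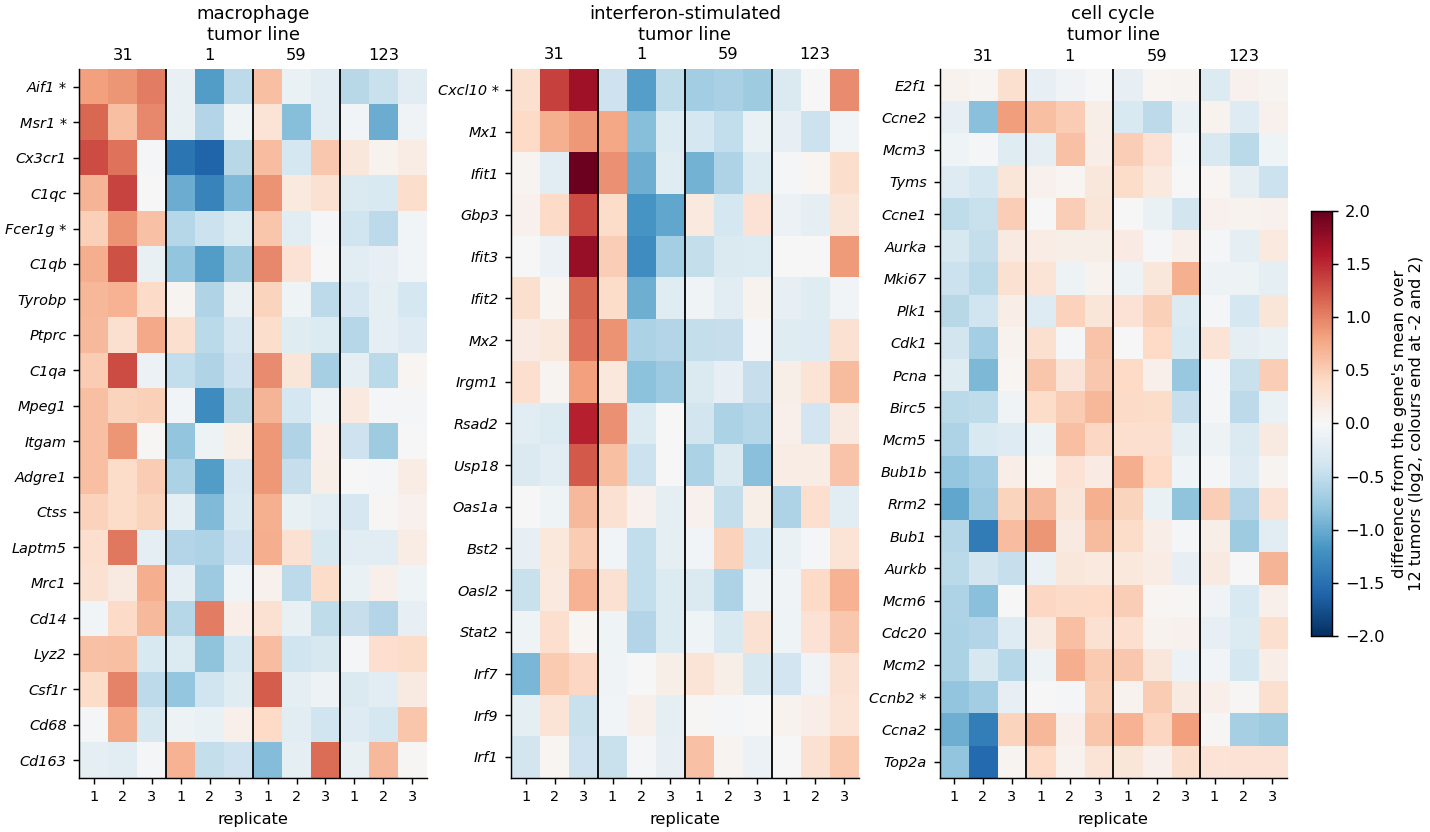
Differences of each gene from its own mean over the 12 tumors (log2, colours ending at -2 and 2) for the macrophage, interferon-stimulated and cell cycle lists, with tumors in columns by line and replicate and an asterisk at genes with an adjusted p under 0.05. Most macrophage genes are above their mean in line 31 replicates 1 and 2, most interferon-stimulated genes are highest in line 31 replicate 3, and most cell cycle genes are lowest in line 31 replicates 1 and 2.

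Of 22 measured cell cycle genes 1 fell in line 31 tumors, none rose, 1 had a mean above the other lines, and the median difference was -0.51. At an unadjusted p under 0.05, 11 were lower and 0 higher, against 7.12% of all genes lower. The called gene was Ccnb2, a mitotic cyclin, which read 7.15, 7.23 and 7.77 against 7.89, 8.03 and 8.44, without overlap, and fell by 0.73 (adjusted p = 0.0496). That call was lost without any 1 tumor other than line 1 replicate 1 or line 31 replicate 3 (highest adjusted p = 0.323). Top2a, the topoisomerase of dividing cells, read 8.51, 7.75 and 9.37 and differed by -1.02 (adjusted p = 0.0624), and the proliferation marker Mki67 by -0.30 (adjusted p = 0.529). The list mean was 7.07, 6.95 and 7.69 in line 31 replicates 1 to 3 and between 7.33 and 7.93 in the others. The 2 tumors lowest in cell cycle genes were the 2 highest of line 31 in the macrophage list, and the part of the host share in the cell cycle values was not tested.

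Cdk6, a kinase that drives G1, read 8.86, 9.0 and 8.45 against 7.70, 8.11 and 8.28, without overlap, and rose by 0.75 (adjusted p = 0.0178), lost without line 31 replicate 1 or replicate 2 (highest adjusted p = 0.141). Its culture value in line 31, 10.86, was the highest of 10 lines. It was the 1 gene called of 13 CDK inhibitors and D cyclins with their kinases. In that list 2 were higher and 1 lower at an unadjusted p under 0.05. Mybl1, a MYB-family transcription factor, read 7.01, 6.50 and 6.95 against 4.96, 5.55 and 6.05, rose by 1.36 ± 0.13 (adjusted p = 0.00114), and was called against each line. Its culture value, 9.65, ranked 2 of 10.

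The p53 label could not be checked at Trp53 or Cdkn1a, which were not analysed here for want of a feature with 1 gene. Of 22 p53 targets, 2 rose and none fell, with a median of 0.05. Without adjustment, 5 were higher and 1 lower at a p under 0.05, against 7.06% and 7.12% of all genes. Fas, a death receptor, read 7.02, 6.55 and 7.50 against 5.53, 5.94 and 6.28, without overlap, and rose by 1.07 (adjusted p = 0.013), lost without line 31 replicate 1 (adjusted p = 0.094). Ddit4l, a stress-induced inhibitor of mTOR signalling, read 7.41, 7.46 and 6.89 against 5.54, 6.23 and 6.96 and rose by 1.05 (adjusted p = 0.0415), lost without line 31 replicate 1 or 2, any 1 tumor of line 59, or line 123 replicate 1 or 3 (highest adjusted p = 0.265). Mdm2, the p53 target that degrades p53, differed by 0.09 (adjusted p = 0.83). Cdkn2a differed by 0.15 (adjusted p = 0.645), with a called difference of 0.77 from line 1.

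The neural stem cell label was checked against its markers. Line 31 tumors read 5.64, 6.32 and 5.69 for Nes and 5.68, 5.40 and 3.99 for Sox2, against 4.61 to 5.70 and 5.68 to 6.06 in subcutaneous tissue. By these readings Nes was above that tissue in replicate 2, and Sox2 was below it in replicates 2 and 3. Vim, an intermediate filament of stem and mesenchymal cells, read 11.57, 11.82 and 11.44, above the 8.57 to 9.39 of that tissue. The subcutaneous arrays were less spread, with an SD over probe sets of 1.205 to 1.339 against 1.829 to 1.896 in line 31 tumors. Their gene medians were 5.82 to 5.87, so Sox2 lay near the middle of these arrays. A reading above or below that tissue therefore need not mean more or less expression. Against the other tumors, Nes differed by -0.95 (adjusted p = 0.096), Sox2 by -0.88 (adjusted p = 0.291) and Vim by -0.48 (adjusted p = 0.0904). Of 17 stem and progenitor genes 1 fell, none rose, and the median was -0.11. Without adjustment, 1 was higher and 5 lower at a p under 0.05. The 1 called, Cd24a, fell by 1.63 (adjusted p = 0.0042), with 0.40 from line 1, -2.32 from line 59 and -2.98 from line 123, and without line 123 tumors it differed by -0.96 (adjusted p = 0.0849).

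Markers of differentiated neural cells changed singly. Of 17 astrocyte genes 1 fell, Sparcl1, a secreted synapse-promoting protein, at 9.16, 8.92 and 8.90 against 9.62, 9.91 and 11.12 (-1.12, adjusted p = 0.00336). Of 17 neuron genes 1 fell, Stmn2, a neuronal microtubule regulator, by 2.22 (adjusted p = 0.0445), with -4.82 from line 123. The Stmn2 call was lost without line 1 replicate 2 or 3, line 31 replicate 1 or 2, line 59 replicate 3, or any 1 tumor of line 123 (highest adjusted p = 0.258), and without line 123 tumors the difference was -0.92 (adjusted p = 0.485). None of 17 oligodendrocyte lineage genes was called (1 higher and 1 lower at an unadjusted p under 0.05). Of 13 Schwann and neural crest genes 2 fell, Cdh19 and Tfap2a, the latter by 1.06 (adjusted p = 0.0231), lost without line 31 replicate 1 or replicate 2 (highest adjusted p = 0.16). Medians were -0.03 for astrocyte, -0.12 for neuron, 0.03 for oligodendrocyte and -0.12 for Schwann genes. Higher and lower at an unadjusted p under 0.05 were 1 and 4 astrocyte, 0 and 4 neuron and 1 and 3 Schwann genes.

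Vessel and host tissue genes showed few calls. Of 18 endothelial genes 1 fell: Tek, the angiopoietin receptor, by 1.20 (adjusted p = 0.00282), which differed by -3.74 from line 1 and by 0.04 and 0.08 from lines 59 and 123. The endothelial median was -0.23, and the list mean was 5.93 to 6.21 in line 31 tumors against 6.60 to 6.77 in line 1 tumors. Without adjustment, 0 endothelial genes were higher and 4 lower at a p under 0.05. No gene was called among 18 skeletal muscle genes (0 higher and 1 lower at an unadjusted p under 0.05), 14 keratinocyte genes (0 and 0) and 14 mural and smooth muscle genes (0 and 3). The list means of muscle and skin differed among the line 31 tumors: 6.23, 6.06 and 5.39 for muscle and 6.11, 5.92 and 5.04 for keratinocytes, with replicate 3 lowest in both. Foxc2, a mesenchymal transcription factor and the 1 called of 14 epithelial-mesenchymal regulators, fell by 0.91 (adjusted p = 0.0067), from -2.49 against line 1 and -0.08 and -0.15 against lines 59 and 123, and was not called without line 31 replicate 1 (adjusted p = 0.0658). Of these regulators, 0 were higher and 3 lower at an unadjusted p under 0.05.

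Several transcription factor genes fell in line 31 tumors. Meis1, a homeobox cofactor of Hox proteins, read 5.95, 6.09 and 5.85 against 6.77, 6.95 and 7.31 and fell by 1.02 ± 0.12 (adjusted p = 0.00282), kept with any 1 tumor left out. It was the 1 called of 24 neural patterning factors (2 higher and 3 lower at an unadjusted p under 0.05). None of 24 Hox genes was called (0 at an unadjusted p under 0.05). Klf12, a zinc finger repressor, read 4.04, 4.51 and 5.36 against 5.89, 6.26 and 6.91 and fell by 1.76 (adjusted p = 0.00282). Stox2, a winged-helix protein, read 5.80, 5.30 and 5.51 against 6.44, 7.07 and 9.29 and fell by 2.22 (adjusted p = 0.00282). Aff3, a transcriptional elongation factor, read 4.85, 4.80 and 4.66 against 5.42, 5.63 and 5.84 and fell by 0.86 (adjusted p = 0.0042). Vgll3, a cofactor of TEAD transcription factors, went the other way, at 9.05, 9.27 and 8.52 against 6.02, 7.28 and 8.51, and rose by 1.47 ± 0.19 (adjusted p = 0.0042).

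The remaining named decreases were of membrane and secreted proteins. They were named from called genes without overlap, so line 31 tumors lying below all 9 others follows from that choice. Gpnmb, a glycoprotein of macrophages and melanocytes, read 5.43, 5.75 and 4.95 against 5.91, 7.07 and 8.43 and fell by 1.77 (adjusted p = 0.00282). Tspan12, a tetraspanin of Norrin signalling, read 5.52, 5.30 and 6.75 against 7.01, 7.49 and 8.26 and fell by 1.68 (adjusted p = 0.0167), lost without line 31 replicate 1 or replicate 2 (highest adjusted p = 0.145). Pcdh7, a protocadherin, read 6.77, 6.62 and 5.92 against 7.49, 8.15 and 8.54 and fell by 1.65 (adjusted p = 0.0067). Qpct, which forms pyroglutamate at protein ends, fell by 1.58 (adjusted p = 0.0242), lost without the same tumors. In contrast, Tjp1, the tight junction protein ZO-1, read 11.10, 10.87 and 9.36 against 8.74, 9.07 and 9.30 and rose by 1.38 (adjusted p = 0.0312), lost without any 1 tumor other than line 1 replicate 1 or line 31 replicate 3 (highest adjusted p = 0.246).

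Called genes were unevenly placed. On chromosome 16, which holds Ccdc80, Mir99ahg, Mir99a and Vgll3, 24 of 648 genes (3.70%) rose, against 0.627% of all genes, and 1 fell. Its median difference was 0.12 over all genes and 0.23 over the 318 above the median level, with 0.18, 0.21 and 0.26 in the 3 line 31 tumors. The same median for the other lines, each against the other 3, was 0.19 for line 1, -0.26 for line 59 and -0.16 for line 123, and the culture of line 31 was at 0.09 against the other cultures. Next to Ccdc80, 14 of 17 genes had a mean above the other lines, and 4 rose: Ccdc80, Atg3 of autophagy (0.96, adjusted p = 0.00738), Gtpbp8 (0.87, adjusted p = 0.0411) and the transporter gene Slc35a5 (0.76, adjusted p = 0.0143). Line 1 tumors also lay above the mean of the other lines on chromosome 16.

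On chromosome 14, 24 of 699 genes (3.43%) fell, against 0.762% of all genes, among them Klf12. The median was -0.08 over all genes and -0.24 over genes above the median level, with -0.19, -0.18 and -0.31 in the 3 line 31 tumors, -0.16 in culture and 0.23 in line 1 tumors. On chromosome 6, 21 of 1099 genes (1.91%) fell, among them Peg10, Sgce, Mest, Pdk4, Gpnmb and Tspan12, and the median was -0.03 over all genes and -0.17 above the median level. DNA copy number was not measured, so its part in these shifts was not tested.

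**Figure D4:**
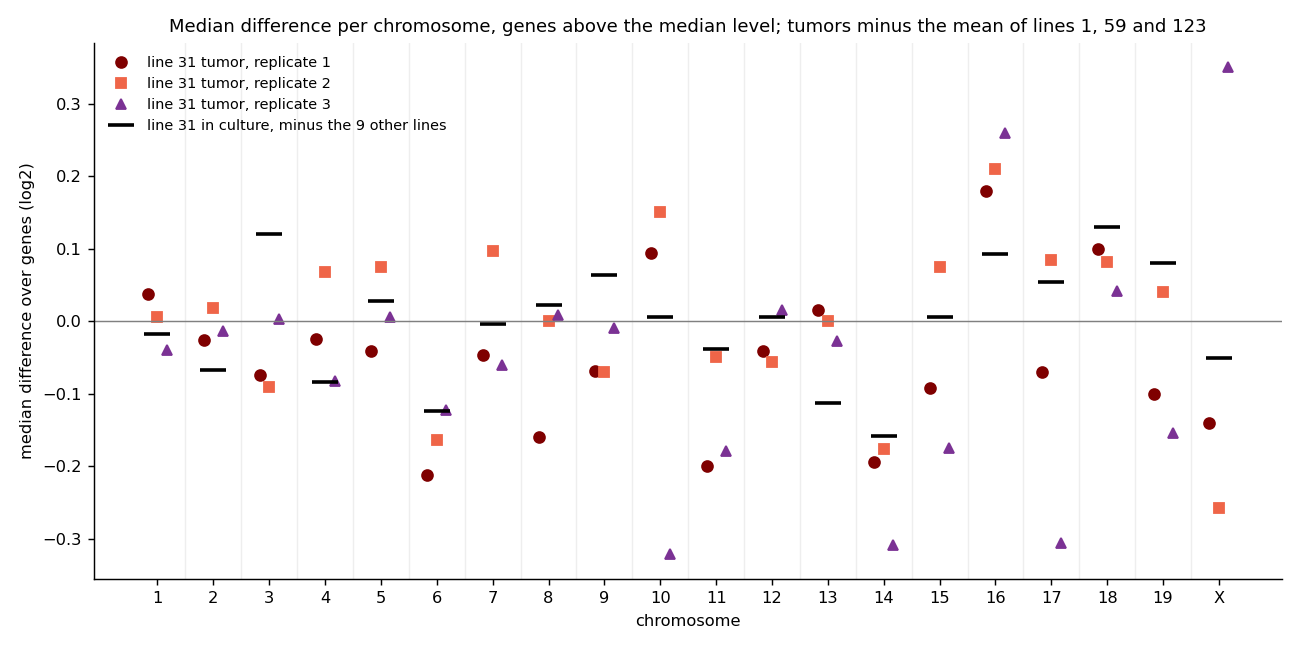
Median log2 difference from the mean of lines 1, 59 and 123 per chromosome, over genes above the median level, for each of the 3 line 31 tumors, with a dash for the culture of line 31 against the other 9 cultures. Chromosome 16 is above 0 and chromosome 14 below 0 in all 3 tumors, while X, 10 and 17 separate replicate 3 from replicates 1 and 2.

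Replicate 3 differed from the other line 31 tumors over whole chromosomes. On X the median over genes above the median level was 0.35 in replicate 3 and -0.14 and -0.26 in replicates 1 and 2. On chromosome 10 it was -0.32 against 0.09 and 0.15, and on chromosome 17 -0.31 against -0.07 and 0.08.

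A stretch of chromosome 4 around Nfib, a transcription factor gene of glial and lung development, was higher in replicates 1 and 2. Over 31 genes from Brinp1 to Haus6 the median difference from the other lines was 0.84, 0.76 and 0.04 in replicates 1 to 3, and 0.42 for the culture of line 31 against 8 other lines. Nfib read 10.84, 10.29 and 8.58 against 7.53, 8.74 and 9.17 at the lowest, median and highest of the others, so replicate 3 was within their range. It differed by 1.37 (adjusted p = 0.114), and without line 31 replicate 3 it was called, at 2.03 (adjusted p = 0.00336). The culture of line 31 had the highest Nfib of 10 lines, at 11.53. Zdhhc21, a palmitoyltransferase gene nearby, read 9.96, 9.14 and 7.62 and rose by 1.56 (adjusted p = 0.0443), lost without any 1 tumor other than line 1 replicate 1 or line 31 replicate 3 (highest adjusted p = 0.255). The highest median of 21 neighbouring genes anywhere, 0.64 from Kdm4c to Rraga, lay in this stretch.

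On chromosome 6 a stretch around Met, the receptor of hepatocyte growth factor, split the line 31 tumors the other way. Met read 8.33, 7.41 and 11.97 in replicates 1 to 3, against 8.88, 10.19 and 12.64 at the lowest, median and highest of the others. Relative to the mean of the other lines, replicate 3 was at 1.31 in Met, 0.82 in Cav1, which encodes caveolin-1, 2.36 in Tes, 2.66 in St7, 3.89 in Cftr and 3.05 in Lsm8. Replicates 1 and 2 were at -2.34 and -3.26 in Met and at -2.66 and -2.80 in Cav1. Over 31 genes from Thsd7a to Ptprz1 the medians were -0.63, -0.78 and 0.35. Of these 31 genes 1 was called for line 31 as a group, Tspan12, which is described above and fell by 1.68, while Met differed by -1.43 (adjusted p = 0.51).

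**Figure D5:**
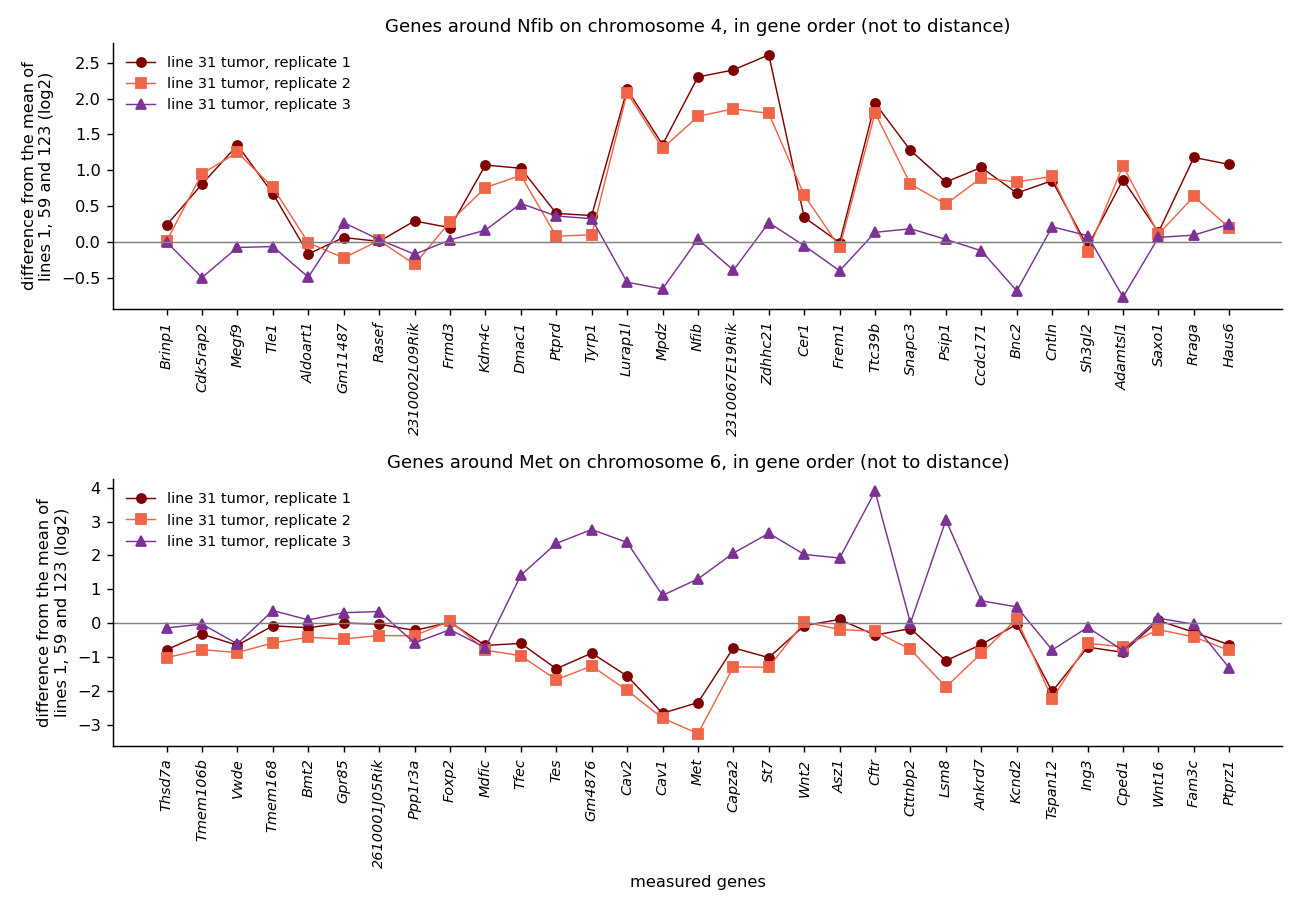
Log2 differences of single line 31 tumors from the mean of lines 1, 59 and 123 for neighbouring genes in chromosome order around Nfib (chromosome 4) and Met (chromosome 6). Around Nfib replicates 1 and 2 have medians of 0.84 and 0.76 and replicate 3 one of 0.04; around Met replicate 3 lies above replicates 1 and 2.

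The genes with the widest range among the line 31 tumors were highest in replicate 3 of the 3. Il13ra2, a decoy receptor of interleukin 13 on X, read 3.42, 3.25 and 8.96, against 2.96 to 4.52 in the other 9 tumors. The neutrophil chemokine gene Cxcl5 read 5.92, 6.28 and 10.71, Brinp3 5.24, 5.75 and 10.13, and U90926 4.77, 4.26 and 8.87. Lsm8, an RNA-binding protein gene near Met, read 8.33, 7.56 and 12.48. None of these was called for line 31 as a group. Brinp3 differed by -2.20 from the other lines, and without line 31 replicate 3 by -3.74 (adjusted p = 0.00318). In Brinp3 it was thus replicates 1 and 2 that lay low. The other genes given here were not called in that fit.

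Compared with single lines, line 31 differed most often from line 1, with 640 genes called (3.21%; 302 or 1.51% higher and 338 or 1.7% lower). Line 59 followed with 221 (1.11%; 78 or 0.391% higher and 143 or 0.717% lower) and line 123 with 147 (0.737%; 41 or 0.206% higher and 106 or 0.532% lower). These comparisons share the line 31 tumors, so their counts are not independent. Against line 1, Plscr2 was higher by 2.71 (adjusted p = 0.0031) and the apoptosis regulator gene Caap1 lower by 4.14 (adjusted p = 6.2e-08). The stretch Tusc1 to Nfia of chromosome 4 had the lowest median of 21 neighbours (-0.84), and line 1 was 1.80 above the other 3 lines there. Against line 59, the other p53 mutant line, Raet1d, a ligand of the NK receptor NKG2D, was higher by 3.92 (adjusted p = 0.018), and Vgll3 by 2.41 (adjusted p = 0.00074). The potassium channel gene Kcnma1 read 4.36, 4.38 and 6.47 in line 31 and was lower by 7.19 than in line 59 (adjusted p = 0.0096) and by 5.85 than in line 123 (adjusted p = 0.041). The gap junction gene Gjc3 was lower by 3.73 than in line 59 (adjusted p = 0.00018).

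Against line 123, Xist, the RNA that silences 1 X chromosome in female cells, was higher by 4.85 (adjusted p = 5.7e-05). It read 9.14, 8.97 and 9.09 in line 31 tumors and differed by 1.23 from the 3 lines together (adjusted p = 0.0548). The Y-linked genes Kdm5d, Eif2s3y and Uty differed by 0.22, 0.61 and 0.33 from the others and were not called. These are mixtures of implanted and host cells, and the sex of neither was stated.

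Cultures give a second view of the called genes, with 1 array per line and no test. Of the 125 genes that rose in line 31 tumors, 67 (53.6%) were higher in cultured line 31 than in both cultured lines 59 and 123, against 23.8% of all genes. Of the 152 that fell, 91 (59.9%) were below both, against 43.2% of all genes. Line 31 was the highest of 10 cultures in 22 of the genes that rose (17.6%, against 6.65% of all) and the lowest in 26 of those that fell (17.1%, against 9.72%). Peg10, Sgce, Mest, Mir99ahg, Fgf2 and Cdk6 ran the same way in culture. Of the genes that rose, 33 were under 6.11 in cultured line 31, the level of the 25th percentile of its genes, Ubd among them. Across all 19937 genes, the tumor and culture differences of line 31 from the mean of lines 59 and 123 correlated with r = 0.227, and with r = 0.33 over the genes above the median level, a description across genes of the same arrays, which are not independent replicates.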

How the data were processed

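Total RNA was taken with Trizol, 100 ng was labelled with biotin, and 1 array was run per sample, per the labels' protocols. The authors deposited log2 levels per probe set, summarised with RMA per the submitters' processing notes, which also name GCOS and Affymetrix Expression Console without versions. They were used as deposited. Of 34760 probe sets, 21640 had 1 gene and were used. Genes with several probe sets (954) kept the one with the highest mean over 27 arrays, leaving 19937 genes. The sources used here name no genome build for the annotation. Gene order and sequences came from RefSeq, GRCm38.p6.

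A model with 4 tumor-line means was fitted to the 12 tumors (8 residual degrees of freedom) with limma 3.58.1 in R 4.3.3, with empirical Bayes moderation, and tested on simulated data. Tests were 2-sided, with Benjamini-Hochberg adjustment across the 19937 genes and calls under 0.05. The number of arrays limits the precision. The members and the 43 gene lists (759 measured genes) were chosen with earlier results of these data known.

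Named were the markers Ccdc80, Chrdl1, Ubd and Sema3c, the 12 largest increases and decreases among called genes without overlap, up to 4 called members per list, the 3 largest each way per line (6 for line 59), the 6 widest ranges within line 31, and a few fixed genes, without provisional symbols. For the 12 largest increases and decreases, the lack of overlap was thus part of the choice and is no added result. Not every gene so named is described. Neighbours of Peg10, Mest, Ccdc80, Nfib and Met, the microRNA genes, list members not called and myeloid genes outside the list were chosen after their values were seen. Alternatives were other probe set rules, filters, scalings, eBayes settings, treatments of line, the 15 tissue arrays in 1 fit, a replicate block and each tumor left out. For chromosomes, the genes above the median level and leaving out tumors were added after seeing the data.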

Additional observations from a re-analysis of the deposited data

Results flagged for a closer look

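Of 24 named genes examined over the 10 cultured lines, 4 had 1 line far from the other 9, against about 1 in 20 groups by chance. Line 95 was at 5.45 in Ubd (next 5.11) and at 8.15 in Stox2 (next 6.31), and line 119 was at 7.35 in Cysltr1 (next 6.27) and at 9.67 in Gpnmb (next 7.20). None of these was line 31.

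In all 24 genes line 31 tumors lay on 1 side of every other tumor, which follows from how the genes were chosen. In 5 of the 24, cultured line 31 lay on the opposite side of both cultured lines 59 and 123. Genes with cultured line 31 between those cultures were not counted, so the remaining genes need not share a sign. Values given are line 31 minus the mean of lines 59 and 123. The difference between culture and tumors was not tested, with 1 culture per line. Chrdl1 was at -0.98 in culture and 1.64 in tumors, Cysltr1 at -0.29 and 1.31, and Cd72 at -0.12 and 1.11. Igfbp5 was at 2.39 in culture and -1.35 in tumors, and Klf12 at 0.42 and -1.92.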

How the results depend on the processing

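Counts of called genes are given as all, higher and lower for line 31 against the other lines (277, 125 and 152). An added 2-fold threshold gave 111, 44 and 67. The 15 tissue arrays in 1 fit gave 129, 47 and 82. Tumors as 2 groups without line terms gave 38, 21 and 17 (2282 at an unadjusted p under 0.05). Line as a random block gave 5, 1 and 4 (1638 unadjusted, consensus correlation 0.104). Without line 1 tumors there were 177 in all and 64 higher, and without line 123 tumors 172 and 66. Leaving out 1 tumor gave 47 to 562, 12 to 259 and 35 to 303. Against line 1 (640, 302 and 338) the 2-fold threshold gave 364, 161 and 203, the 15 arrays 352, 147 and 205, and leaving out 1 tumor 201 to 1139, 84 to 559 and 117 to 580. Against line 59 (221, 78 and 143) these were 135, 41 and 94, then 111, 28 and 83, then 75 to 393, 19 to 161 and 56 to 232. Against line 123 (147, 41 and 106) the 15 arrays gave 71, 15 and 56, leaving out 1 tumor 40 to 335, 4 to 125 and 36 to 210, and for higher genes quantile normalization gave 73 and the 2-fold threshold 22. The other settings stayed within 1.5 times of the count of 277: the mean of all probe sets gave 279, a filter above the median level 308, trend and robust eBayes 233, centred arrays 246 and quantile normalization 361.

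Deviations of same-numbered tumors from their line means correlated at -0.282 to 0.335, with 3 of 18 over 0.1. Those of tumors with different numbers correlated at -0.406 to 0.305, with 14 of 36 over 0.1. By these values the numbers showed no common pairing, and a shared batch was not tested. With the replicate block 259 genes were called (120 higher, 139 lower), of which 213 were shared with the 277, and 552, 191 and 150 against lines 1, 59 and 123.

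Over genes above the median level the medians were 0.235 for chromosome 16, -0.239 for 14 and -0.169 for 6. Over all genes they were 0.124, -0.0822 and -0.0273, and these ran over 0.116 to 0.151, -0.0940 to -0.0763 and -0.0473 to -0.00331 without 1 line 31 tumor. The highest window, 0.64 with 21 genes, was 0.83 with 11 and 0.46 with 41 genes and 0.37 to 0.92 without 1 tumor, and the lowest, -0.84, was -1.01, -0.31 and -0.89 to -0.75.

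Of the values of named genes under alternatives, 1676 kept direction and side of the threshold, 348 lost the call, 23 gained it and 15 changed sign. The last were Tek (0.0624), Plscr2 (-0.13), Cdkn2a (-0.17) and Lsm8 (-0.20) without line 1 tumors, and Xist (-0.57) and Olfr1372-ps1 (0.44) without line 123 tumors. The rest came from leaving out 1 tumor, with ranges of -0.30 to 2.56 for Il13ra2, -0.58 to 1.72 for U90926 and -1.49 to 0.97 for Lsm8, each lowest without line 31 replicate 3, and -0.026 to 0.177 for Mdm2, lowest without line 31 replicate 1. The causes were not tested.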
